A study of Mus musculus with 19 samples.

Results

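Palmitic acid (PA) and palmitoleic acid (PMA), which have 16 carbons, were set against stearic acid (SA) and oleic acid (OA), which have 18. PA and SA carry no double bond and PMA and OA carry 1, so that PA against SA and PMA against OA each differ by 2 carbons at the same number of double bonds. All arrays whose labels name a fatty acid were taken, 15 of the 19 in the series: PA (n = 4) and PMA (n = 4), against SA (n = 4) and OA (n = 3). The other 4 arrays are vehicle controls and enter the fit only for the spread between replicates. The cells were 3T3-L1, a mouse fibroblast line that stores fat in droplets once a hormone mixture has turned it into adipocytes. Every group thus holds samples of 1 line. All groups shared that mixture of dexamethasone, IBMX and insulin, an insulin medium after it, and the removal of serum on day 7. On day 8 the medium was replaced by one holding 250 µM of 1 acid with 2% albumin and ethanol as solvent for 48 h, while control cells received albumin and ethanol alone. The labels number the arrays of each group as biological replicates, without saying whether cultures were started separately, and the array titles write PMO for PMA. The series text states that a further OA preparation was lost in amplification.

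Fatty acid synthase ends its work at the 16-carbon chain, Elovl6 lengthens 16-carbon chains to 18 carbons, and the stearoyl-CoA desaturases put the double bond into either of them. Adipocytes take up all 4 acids, activate them to CoA esters and store them in triglyceride, so that an added acid can be stored as it is, lengthened or desaturated. Saturated acids, PA above all, are known for stress signals of the endoplasmic reticulum and for inflammatory signals in many cell types.

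Values are log2 expression, the scale RMA gives, and a signed difference is always the 16-carbon side minus the 18-carbon side. For the chain length effect the mean of the SA and OA group means was taken from the mean of the PA and PMA group means. Of 18820 genes 96 passed (0.51%), where passing means a limma adjusted p under 0.05 over all genes: 65 were higher with the 16-carbon acids (0.345%) and 31 were lower (0.165%). The changes were small, with a median absolute difference of 0.26 over the 96 genes, and 3 of them exceeded 1.5-fold, namely Snord53, Prg4 and Lcn2. The genes that were higher included Lcn2, an acute phase protein, Prg4, a lubricating glycoprotein, the neighbours Chchd10 and Mmp11, and the stress gene Trib3. Those that were lower included the matrix proteins Ogn and Fmod, the cytokine Tgfb3, the lipase Pnpla3, the hormone Lep and the sugar transferase B3galt2.

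The arrays themselves were not alike on both sides of the comparison. Over all probe sets the 8 arrays given 16-carbon acids had medians of 5.24 to 5.43 (mean 5.33), and the 7 given 18-carbon acids had medians of 5.24 to 5.32 (mean 5.27), a difference of 0.06 (exact permutation test over 6435 splits, two-sided p = 0.0505). On the first principal component the means were -5.29 and 4.42, and the ranges overlapped, at -27.4 to 5.17 and -6.33 to 9.59. By the same exact permutation test p was 0.0373 for it, 0.539 for the second and 0.251 for the interquartile range. There was no adjustment over these 4 measures. The test takes single arrays as replicates of a chain length, though each side holds 2 acids, so that it cannot show a difference due to chain length. PA replicates 2 and 4 lay lowest on the first principal component, at -27.4 and -13.8, and PMA replicates 1 and 4 highest on the second, at 17.1 and 11.9. All 4 received 16 carbons. The median difference of all genes was 0.03, and the direction of calls moved with the scaling between arrays: cyclic loess gave 99 higher and 126 lower, and centring each array on its median gave 28 higher and 143 lower, against 65 and 31 as deposited. With those 4 arrays left out 19 genes passed, 11 higher and 8 lower, and 18 of them were among the 96. Leaving them out kept 2 PA and 2 PMA arrays, which lowers the precision, and took arrays from the 16-carbon side only. How far calls lost in that setting, here and below, follow from fewer arrays was not tested. Taking the 8 arrays as 1 group and the 7 as another, so that the spread between acids of a chain length counts as error, 43 passed, all among the 96. The adipocyte marker list averaged 10.18 to 10.25 on the arrays of 16-carbon acids and 10.19 to 10.26 on those of 18-carbon acids, while 16 of 18 macrophage markers, 9 of 10 endothelial markers and 9 of 12 muscle markers lay below the median of all genes (5.97).

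**Figure D1:**
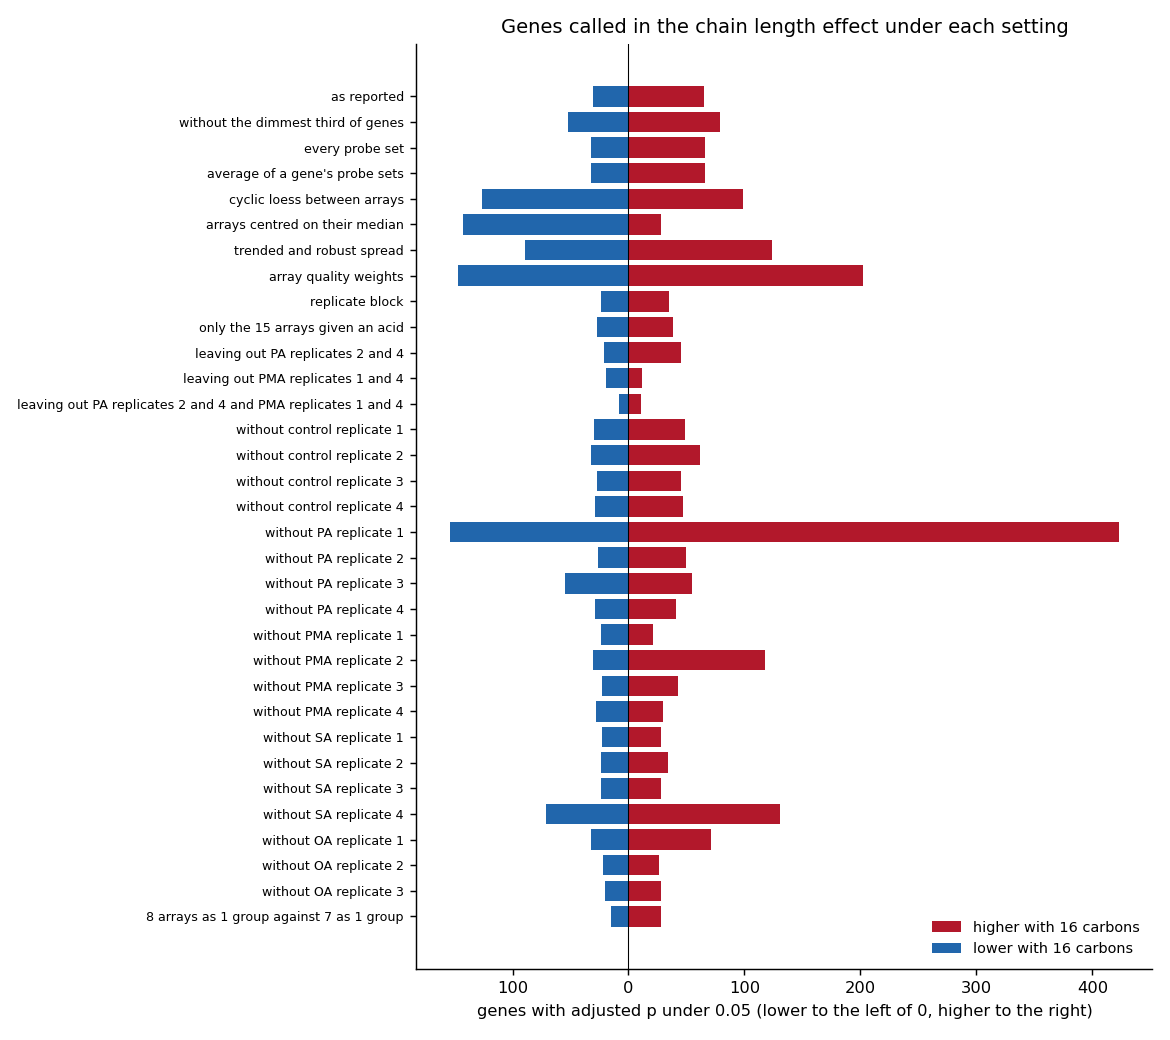
Genes with a limma adjusted p under 0.05 in the chain length effect, as reported (top) and under each alternative. Bars to the right of 0 count genes higher with 16 carbons and bars to the left genes lower with 16 carbons. The count was 96 as reported, 19 without PA replicates 2 and 4 and PMA replicates 1 and 4, and 577 without PA replicate 1.

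Whether the saturated and the monounsaturated pair moved alike was asked next. The pairs share no array. Of the 96 genes 95 had the same sign in PA minus SA and in PMA minus OA, and 78 had an unadjusted p under 0.05 in both in that direction. Choosing genes by the mean of the pairs favours those that go the same way, and over all 18820 genes the signs were alike in 65.1%, with both unadjusted p under 0.05 in 1.71%. The remaining gene was BC023105. Pearson's r of the 2 differences across genes was 0.413 as a description, since genes are not independent replicates, and 0.166 without the 4 arrays that stood apart, when 53.4% of all genes shared a sign. Calls of 1 pair can be read in the other, where they were not chosen. Of the 27 genes that passed in PA against SA (0.143% of all), 23 had the same sign in PMA against OA, with a median difference there of 0.16 in the direction of the call, against 0.39 in their own pair. Of the 10 that passed in PMA against OA (0.0531%), 9 had the same sign in PA against SA, at a median of 0.31 against 0.47 in their own pair.

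**Figure D2:**
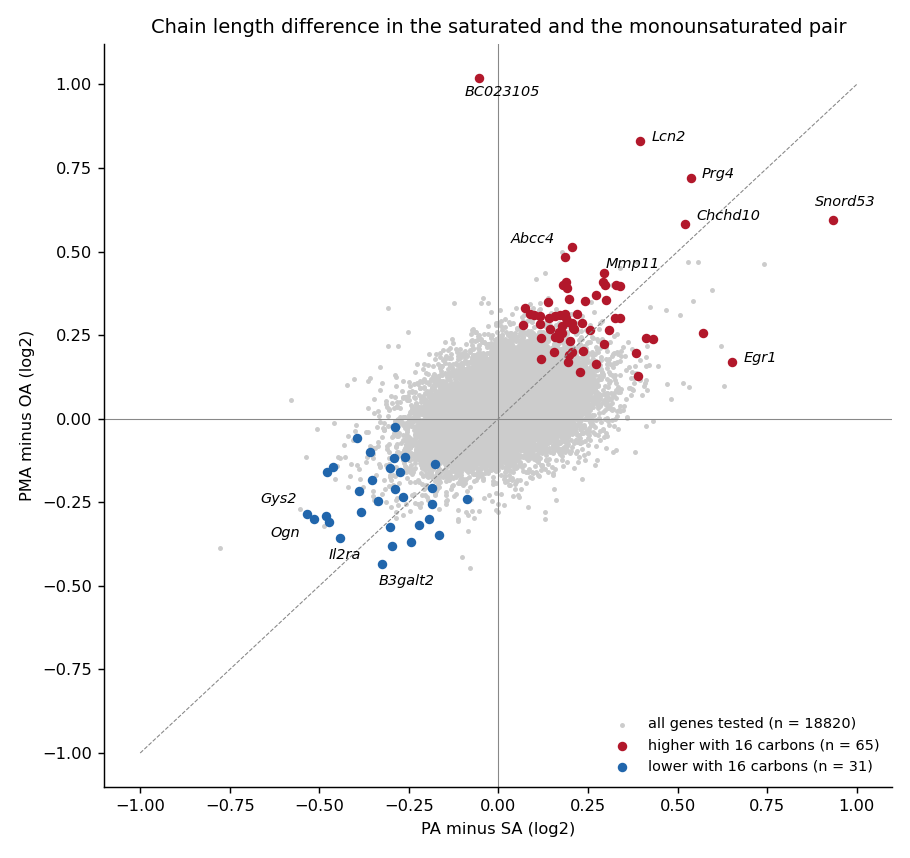
Each point is 1 gene, with its PA minus SA difference on the x axis and its PMA minus OA difference on the y axis, both log2. Grey points are all 18820 genes, red points the 65 higher and blue points the 31 lower with 16 carbons, and the dashed line marks equal differences in both pairs. The red and blue points have like signs on both axes apart from BC023105, which stands at -0.05 and 1.02.

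Promoters are shown for Chchd10 and Mmp11, which are neighbours and both passed in each pair, and for Trib3 and Pck2, which belong to the integrated stress response. They are given as RefSeq has them in GRCm38.p6, from 250 bases before to 50 after the start, 5′ to 3′ on the gene's strand. Capitals mark TGATGNAA, or its complement on the other strand, the core of the C/EBP-ATF response element that ATF4 binds.
Chchd10, chr10:75932880-75933179, plus strand: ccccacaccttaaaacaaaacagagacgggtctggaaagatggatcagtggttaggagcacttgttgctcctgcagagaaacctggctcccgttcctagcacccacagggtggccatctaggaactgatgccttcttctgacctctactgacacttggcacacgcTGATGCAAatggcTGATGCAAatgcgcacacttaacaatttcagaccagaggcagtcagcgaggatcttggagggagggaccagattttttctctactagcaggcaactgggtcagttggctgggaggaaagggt
Mmp11, chr10:75932453-75932752, minus strand: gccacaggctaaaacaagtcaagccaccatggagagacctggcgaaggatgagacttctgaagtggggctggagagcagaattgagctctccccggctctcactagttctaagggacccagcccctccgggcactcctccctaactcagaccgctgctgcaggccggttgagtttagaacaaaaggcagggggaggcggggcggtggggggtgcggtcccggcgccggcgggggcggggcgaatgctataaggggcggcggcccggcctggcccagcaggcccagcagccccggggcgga
Trib3, chr2:152344011-152344310, minus strand: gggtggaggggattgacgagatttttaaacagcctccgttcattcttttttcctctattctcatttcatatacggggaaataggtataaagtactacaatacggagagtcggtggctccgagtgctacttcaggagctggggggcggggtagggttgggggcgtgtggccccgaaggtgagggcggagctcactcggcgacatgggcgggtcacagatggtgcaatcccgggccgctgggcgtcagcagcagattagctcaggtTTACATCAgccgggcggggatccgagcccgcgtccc
Pck2, chr14:55540016-55540315, plus strand: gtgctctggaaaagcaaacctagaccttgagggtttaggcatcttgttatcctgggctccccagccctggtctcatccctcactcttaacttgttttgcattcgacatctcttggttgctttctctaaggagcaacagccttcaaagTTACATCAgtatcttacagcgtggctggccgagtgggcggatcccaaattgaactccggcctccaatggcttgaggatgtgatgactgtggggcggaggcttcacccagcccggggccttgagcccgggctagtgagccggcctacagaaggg
The Chchd10 window held the letters 2 times, with first bases at -85 and -72 from the start. The Pck2 window held them at -103 and the Trib3 window at 15 after the start, both on the other strand, and the Mmp11 window did not hold them. Of the 14752 tested genes with a promoter in RefSeq's set, 3.63% held the letters, and so did 4 of 53 genes called higher (Chchd10, Mgat4f, Pck2 and Trib3) and 1 of 26 called lower (Rbm47). Among the integrated stress response genes it was 8 of 23. A further 3 motifs were searched the same way. TGACNNNGC, the core of the antioxidant response element, lay in 12 of 53 called higher (22.6%) and 5 of 26 called lower (19.2%), against 15.4% of all. The NF-kB site lay in 7 of 53 (13.2%) and 2 of 26 (7.69%), against 11% of all, and the CArG box in 0 of 53 and 0 of 26, against 1.64% of all. A match describes these letters in this window and is not a measured site.

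Passing in both pairs in 1 direction was met by 3 genes, 0.0159% of all: Chchd10 and Mmp11, which were higher with 16 carbons, and B3galt2, which was lower. Chchd10, a protein of the mitochondrial intermembrane space, measured 7.58, 7.58, 7.53 and 7.60 with PA and 7.99, 7.49, 7.82 and 7.79 with PMA, against 7.08, 7.18, 6.83 and 7.12 with SA, 7.38, 7.13 and 7.06 with OA and 7.27, 7.49, 7.43 and 7.51 in control cells (log2). Every 16-carbon array lay above every 18-carbon array, and the control mean of 7.42 lay between the chain lengths. The difference was 0.55 ± 0.07 (SE, limma adjusted p = 0.000244), with 0.52 in PA against SA (adjusted p = 0.0194) and 0.58 in PMA against OA (adjusted p = 0.026). Mmp11, a secreted matrix metalloproteinase, measured 9.31, 9.23, 9.23 and 9.31 with PA and 9.36, 9.11, 9.26 and 9.23 with PMA, against 8.94, 9.02, 8.85 and 8.92 with SA, 8.90, 8.89 and 8.74 with OA and 9.09, 9.36, 9.17 and 9.33 in control cells. The chain lengths did not overlap here either, and the control mean of 9.24 was close to the 16-carbon mean of 9.26. Mmp11 was higher by 0.37 ± 0.05 (adjusted p = 0.000376), with 0.34 and 0.40 in the saturated and the monounsaturated pair (adjusted p = 0.0333 and 0.03).

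Chchd10 and Mmp11 are next to each other on chromosome 10 and are read away from each other, with starts 627 bases apart by RefSeq's annotation. Their residuals from the group means went together across arrays (r = 0.842), so that the 2 genes are not independent results. Whether transcripts of 1 gene reach the probes of the other was not tested. B3galt2, which adds galactose to sugar chains of glycoproteins and glycolipids, measured 8.33, 8.41, 8.39 and 8.42 with PA and 8.24, 8.38, 8.30 and 8.39 with PMA, against 8.75, 8.76, 8.73 and 8.61 with SA, 8.76, 8.76 and 8.77 with OA and 8.44, 8.25, 8.29 and 8.46 in control cells. The highest 16-carbon array was below the lowest 18-carbon array, and the control arrays overlapped the 16-carbon ones. The difference was -0.38 ± 0.04 (adjusted p = 6.64e-05), with -0.32 in PA against SA (adjusted p = 0.0134) and -0.43 in PMA against OA (adjusted p = 0.00191). No gene passed in both pairs when PA replicates 2 and 4, or PMA replicates 1 and 4, were left out. Of the 19 single arrays that can be left out, B3galt2 kept passing in both pairs for 17, Chchd10 for 11 and Mmp11 for 7, and without SA replicate 1 none of the 3 did and Prg4 was the only gene. The chain length effect of the 3 genes passed without all 4 arrays, at 0.49 for Chchd10, 0.34 for Mmp11 and -0.39 for B3galt2 (adjusted p = 0.0167, 0.0198 and 0.00334).

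Beside these 3, a further 9 of the 96 genes passed in every alternative run: Prg4, Lcn2, Abcc4, Trib3 and Scd3, which were higher, and Il2ra, Cpa5, Tgfb3 and Pnpla3, which were lower. Lcn2 encodes lipocalin 2, which binds the iron chelators of bacteria and is secreted by adipocytes under inflammatory signals, and it measured 8.85, 8.73, 9.02 and 8.82 with PA and 8.99, 8.76, 8.83 and 9.02 with PMA, against 8.53, 8.57, 8.39 and 8.34 with SA, 8.12, 7.96 and 8.13 with OA and 9.31, 9.19, 8.81 and 9.11 in control cells. All 16-carbon arrays lay above all 18-carbon arrays, the OA arrays were lowest, and the control mean of 9.11 was above both chain lengths. Lcn2 was higher with 16 carbons by 0.61 ± 0.07 (1.53-fold, adjusted p = 6.64e-05), with 0.83 in PMA against OA (adjusted p = 0.000257) and 0.40 in PA against SA, which did not pass (adjusted p = 0.0874). The interaction of Lcn2 had an adjusted p of 0.929, so that the pairs were not shown to differ. Prg4, also called lubricin, measured 8.59, 8.06, 8.42 and 8.26 with PA and 8.60, 8.34, 8.54 and 8.45 with PMA, against 8.08, 7.88, 7.62 and 7.61 with SA, 7.71, 7.99 and 7.59 with OA and 8.34, 8.61, 8.32 and 8.32 in control cells. PA replicate 2, at 8.06, lay below SA replicate 1, at 8.08, and the other 16-carbon arrays lay above all 18-carbon ones. Its difference was 0.63 ± 0.08 (adjusted p = 0.000474).

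**Figure D3:**
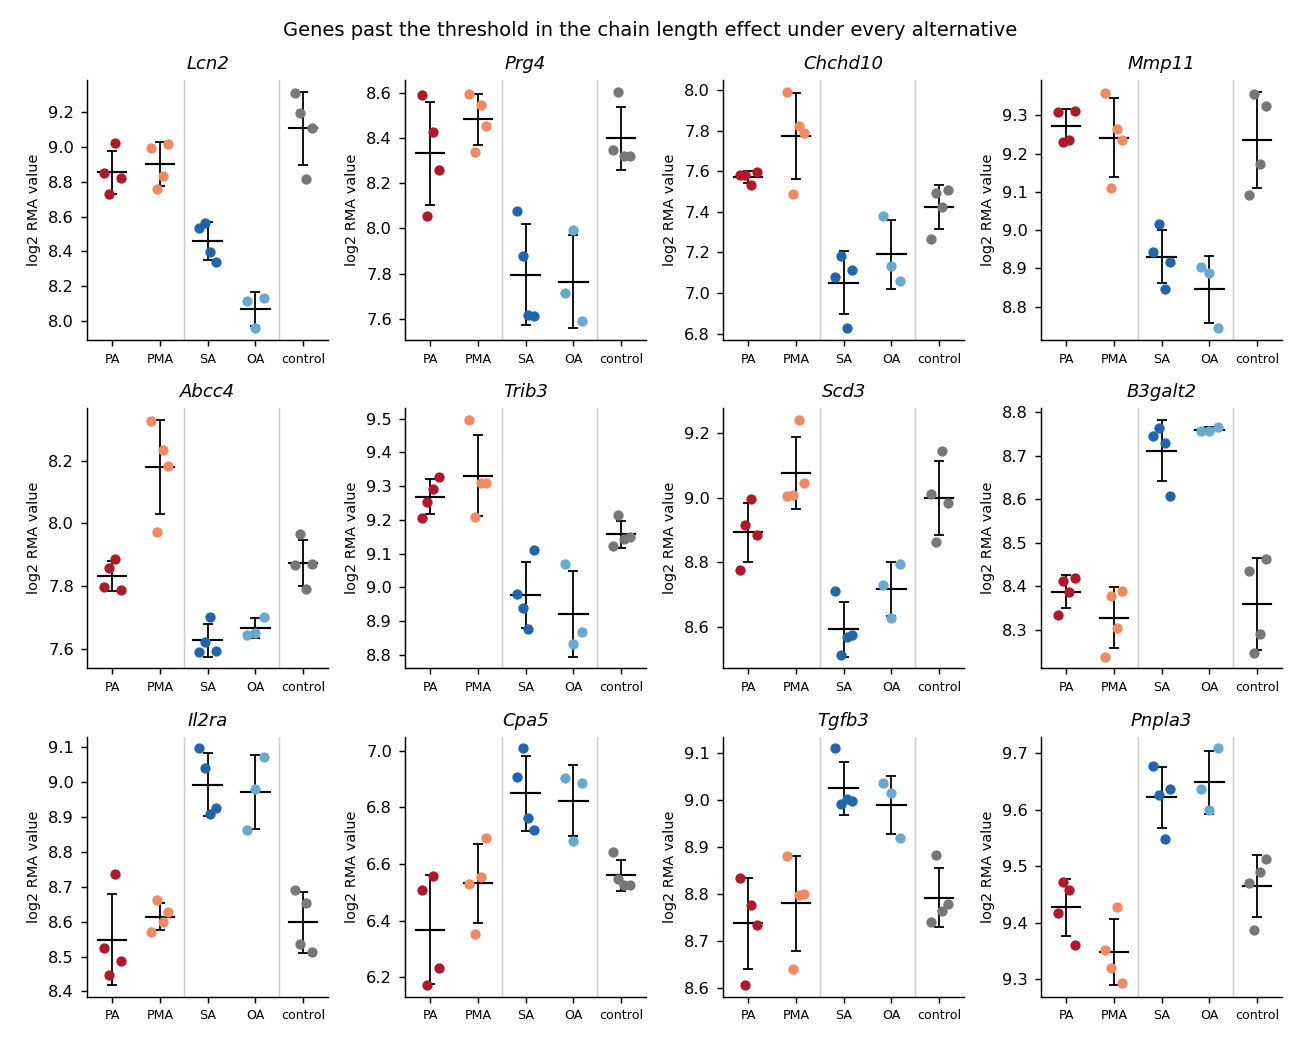
log2 RMA values of the 12 genes that passed in the chain length effect under every alternative run, 1 panel per gene. Points are arrays, black bars are group means with SD, and vertical lines part the 16-carbon acids (PA, PMA), the 18-carbon acids (SA, OA) and the control. In B3galt2 the 8 arrays at 16 carbons sit between 8.24 and 8.42 and the 7 at 18 carbons between 8.61 and 8.77.

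Il2ra, the alpha chain of the interleukin-2 receptor, measured 8.52, 8.45, 8.74 and 8.49 with PA and 8.57, 8.66, 8.60 and 8.63 with PMA, against 9.10, 9.04, 8.91 and 8.93 with SA, 8.86, 8.98 and 9.07 with OA and 8.69, 8.53, 8.65 and 8.51 in control cells. All 18-carbon arrays were above all other arrays, and the difference was -0.40 ± 0.05 (adjusted p = 0.000244). Tgfb3, a cytokine of the TGF-beta family, measured 8.83, 8.61, 8.78 and 8.73 with PA and 8.88, 8.64, 8.80 and 8.80 with PMA, against 9.11, 8.99, 9.00 and 9.00 with SA, 9.04, 9.01 and 8.92 with OA and 8.74, 8.88, 8.76 and 8.78 in control cells. Here too the 18-carbon arrays were above all others (-0.25 ± 0.04, adjusted p = 0.00816). Pnpla3, a lipase-like protein of lipid droplets, measured 9.42, 9.47, 9.46 and 9.36 with PA and 9.35, 9.32, 9.43 and 9.29 with PMA, against 9.68, 9.63, 9.55 and 9.64 with SA, 9.64, 9.60 and 9.71 with OA and 9.47, 9.39, 9.49 and 9.51 in control cells. The 18-carbon arrays were again the higher ones (-0.25 ± 0.04, adjusted p = 0.00142). Cpa5, a carboxypeptidase, was lower, with a difference of -0.39 ± 0.06 (adjusted p = 0.00545), with PMA replicate 4 at 6.69 just above OA replicate 2 at 6.68.

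Over all genes the 8 arrays at 16 carbons and the 7 at 18 carbons did not overlap in 49 genes, 0.26% of those tested, 34 higher and 15 lower. They held 28 of the 96 genes. Those genes were chosen by the difference between the same arrays, which favours a lack of overlap, so that the 28 are no separate evidence. Control cells received no acid, and their mean lay nearer to the 16-carbon than to the 18-carbon mean in 47 of the 65 genes called higher and 30 of the 31 called lower, against 45.1% of all genes. It lay between the chain lengths in 53 of the 65 and 19 of the 31, against 32.7% of all genes, and beyond the 16-carbon mean in 11 and 12, against 30.7% of all genes. These positions were not tested, since the same control arrays enter them all. The genes that passed were also chosen for a wide gap, with a median absolute difference of 0.26 against 0.06 over all genes. A wide gap makes it more frequent for the control mean to lie between the chain lengths. The shares of all genes between and beyond are therefore no like comparator.

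**Figure D4:**
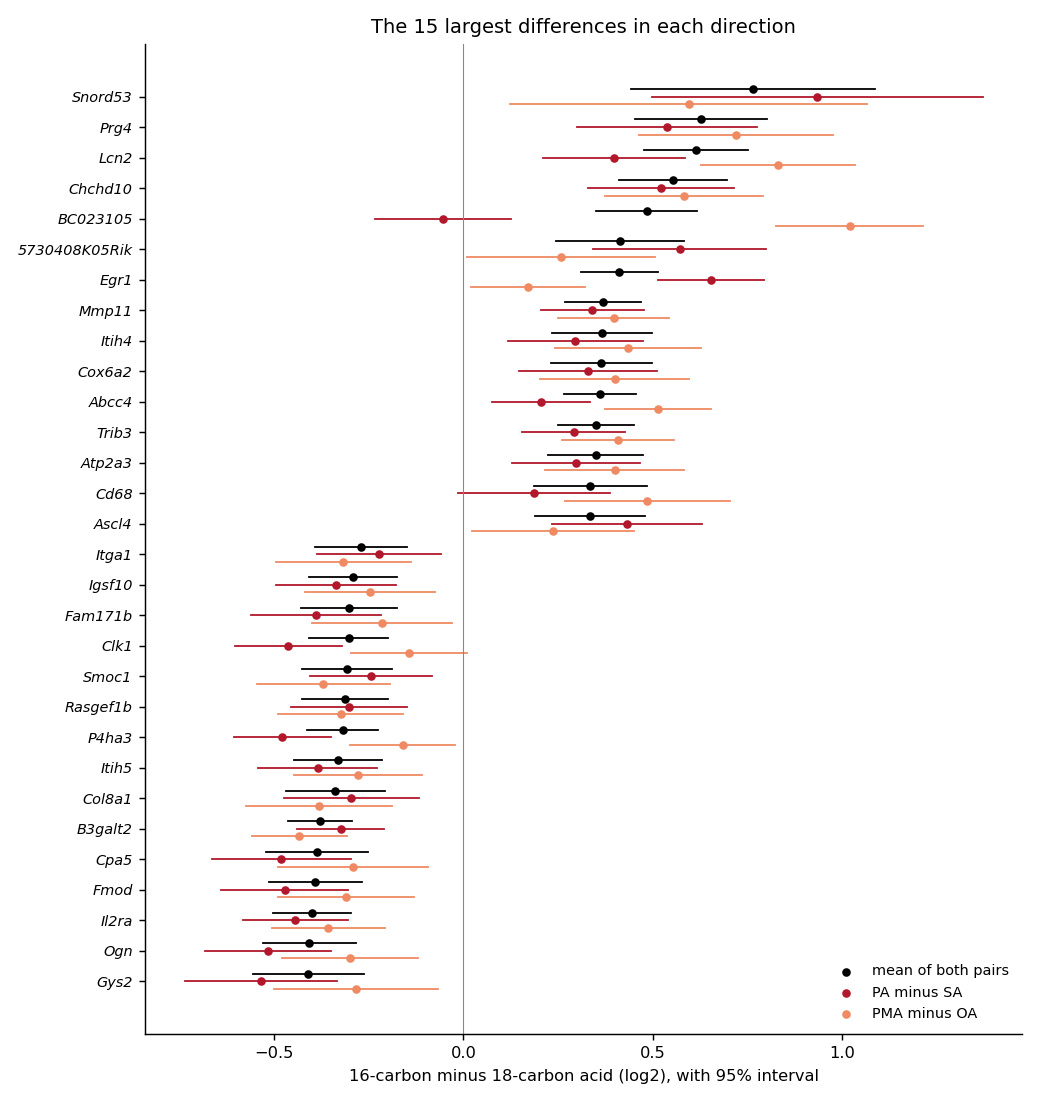
The 15 largest positive and the 15 largest negative chain length differences among the genes that passed. Black points are the mean of both pairs, dark red points PA minus SA and orange points PMA minus OA, with 95% intervals from the limma fit, all log2. The intervals of the pairs do not meet for 6 of the 30 genes (Abcc4, BC023105, Clk1, Egr1, Lcn2 and P4ha3), of which BC023105 passed in the test of the difference between pairs.

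Matrix genes of the list used here were called in 1 direction, and those outside it in both. Here and below, the lists were written with earlier results of these arrays known. The list of extracellular matrix genes had a median of -0.01 against 0.03 for all genes. Of its 37 measured genes 4 were lower with 16 carbons, against 0.165% of all genes, 0 were higher and 33 did not pass. The 4 were Ogn and Fmod, small leucine-rich proteoglycans that bind collagen fibrils, Lox, which crosslinks collagen, and Col8a1, a short-chain collagen. Ogn measured 9.08, 8.91, 9.21 and 9.11 with PA and 9.62, 9.86, 9.61 and 9.67 with PMA, against 9.57, 9.69, 9.67 and 9.44 with SA, 9.87 to 10.10 with OA and 9.50, 9.58, 9.39 and 9.26 in control cells. PA lay below SA and PMA below OA in every array, while PMA and SA overlapped. The difference was -0.41 ± 0.06 (adjusted p = 0.00111), with -0.52 in PA against SA (adjusted p = 0.00587) and -0.30 in PMA against OA (adjusted p = 0.331). Fmod measured 6.07, 5.84, 5.93 and 6.08 with PA and 6.49, 6.59, 6.54 and 6.80 with PMA, against 6.40, 6.61, 6.38 and 6.41 with SA, 7.01, 6.72 and 7.02 with OA and 6.12, 6.12, 6.04 and 5.95 in control cells. PA lay with the controls and below all SA arrays, and PMA overlapped both SA and OA (-0.39 ± 0.06, adjusted p = 0.00173). With 8 arrays as 1 group against 7, Ogn and Fmod did not pass (adjusted p = 0.161 and 0.198), and Lox and Col8a1 did.

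Lox was lower with 16 carbons (-0.25 ± 0.05, adjusted p = 0.00844), as was Col8a1 (-0.34 ± 0.06, adjusted p = 0.0125). Without the 4 arrays that stood apart 1 of the 37 matrix genes passed, which was Fmod (-0.40, adjusted p = 0.013), and Ogn, Lox and Col8a1 did not (adjusted p = 0.062, 0.124 and 0.213). After centring each array on its median 5 of the 37 were lower, where 143 of all 18820 genes were. Genes outside the list with a role in the matrix or at its contacts went both ways, and they are named here after their values were seen. Higher were Prg4 (0.63) and Mmp11 (0.37), described above, Itih4 (0.37, adjusted p = 0.00744), of the same family as Itih5, and Adamtsl5, a secreted relative of the ADAMTS proteases (0.21, adjusted p = 0.0405). Lower were Npnt, an integrin ligand (-0.27, adjusted p = 0.0117), P4ha3, a subunit of a collagen prolyl hydroxylase (-0.32, adjusted p = 0.00108), Itih5, of a family that links hyaluronan to protein (-0.33, adjusted p = 0.00545), and Smoc1, a calcium-binding matrix protein (-0.31, adjusted p = 0.0125). Itga1, an integrin chain that binds collagen, was lower too (-0.27, adjusted p = 0.0366). P4ha3 measured 6.94, 7.06, 6.94 and 7.01 with PA and 7.53, 7.46, 7.46 and 7.47 with PMA, against 7.46, 7.41, 7.44 and 7.54 with SA, 7.80, 7.48 and 7.64 with OA and 7.30, 7.26, 7.17 and 7.11 in control cells. PA lay below all SA arrays (-0.48 ± 0.06, adjusted p = 0.00133), whereas PMA and OA overlapped (-0.16 ± 0.07, adjusted p = 0.53). Of P4ha3, Itih5, Smoc1 and Itga1, P4ha3 passed without the 4 arrays (adjusted p = 0.013), and Itih5, Smoc1 and Itga1 did not (adjusted p = 0.124, 0.244 and 0.149). P4ha3 and Itga1 did not pass with 8 arrays as 1 group against 7 (adjusted p = 0.134 and 0.0752). Of 21 preadipocyte and fibroblast markers 0 passed, where 0.51% of all genes did. After centring 1 of them was lower and with loess 1, where 143 and 126 of all 18820 genes were. The mean of these markers was 7.69 to 7.93 with 16 carbons and 7.75 to 7.82 with 18.

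Stress genes were among those that were higher. The integrated stress response lowers general translation and raises ATF4, which switches on genes of amino acid supply. Of 27 measured genes of it 3 were higher with 16 carbons, against 0.345% of all genes, 0 were lower and 24 did not pass. The list median was 0.06, against 0.03 for all genes. The 3 were Trib3, a pseudokinase induced by ATF4, Pck2, the mitochondrial enzyme that makes phosphoenolpyruvate, and Psph, the last step of serine synthesis. Trib3 measured 9.20, 9.25, 9.29 and 9.33 with PA and 9.50, 9.21, 9.31 and 9.31 with PMA, against 8.98, 8.94, 8.88 and 9.11 with SA, 9.07, 8.83 and 8.87 with OA and 9.12, 9.22, 9.14 and 9.15 in control cells. The chain lengths did not overlap, and the controls lay between their means. Trib3 was higher by 0.35 ± 0.05 (adjusted p = 0.000674), with 0.29 in the saturated pair and 0.41 in the monounsaturated pair (adjusted p = 0.0874 and 0.026). Pck2 measured 9.03, 9.11, 8.97 and 9.06 with PA and 9.20, 9.04, 9.10 and 9.17 with PMA, against 8.86, 8.93, 8.77 and 8.77 with SA, 8.90, 8.85 and 8.82 with OA and 8.99, 9.04, 8.98 and 9.02 in control cells. It was higher by 0.24 ± 0.04 (adjusted p = 0.00306) and Psph by 0.20 ± 0.04 (adjusted p = 0.0359), both without overlap of the chain lengths. The letters in capitals above lie in the promoters of Trib3 and Pck2, and the Psph window held none. Without the 4 arrays that stood apart Trib3 was the only one of the 27 to pass (0.30, adjusted p = 0.033), with adjusted p = 0.124 for Pck2 and 0.36 for Psph. After centring each array on its median 2 of the 27 were higher, where 28 of all 18820 genes were, and Psph did not pass (adjusted p = 0.105). The list median was then -0.0003. With loess 4 of the 27 were higher, where 99 of all 18820 genes were. Of 22 endoplasmic reticulum chaperones and related genes 0 passed, where 0.51% of all genes did. A list of this size can hold none without differing from the other genes.

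NRF2 switches on genes against oxidants and foreign compounds. Of 23 measured targets 3 were higher, against 0.345% of all genes, 0 were lower and 20 did not pass. The list median was 0.04, against 0.03 for all genes. The 3 were Abcc4, an exporter of cyclic nucleotides and prostaglandins, Nqo1, a quinone reductase, and Srxn1, which repairs oxidised peroxiredoxins. Abcc4 measured 7.80, 7.86, 7.89 and 7.79 with PA and 8.33, 7.97, 8.23 and 8.18 with PMA, against 7.59, 7.62, 7.70 and 7.59 with SA, 7.64, 7.65 and 7.70 with OA and 7.87, 7.97, 7.79 and 7.87 in control cells. The PMA arrays were highest, level at 7.97 with 1 control, the PA arrays lay with the controls, and both 18-carbon groups lay lowest. Abcc4 was higher by 0.36 ± 0.05 (adjusted p = 0.000325), with 0.51 in PMA against OA (adjusted p = 0.000983) and 0.21 in PA against SA (adjusted p = 0.169). Nqo1 was higher by 0.30 ± 0.06 (adjusted p = 0.0233) and Srxn1 by 0.21 ± 0.04 (adjusted p = 0.0323). Centring each array on its median left Abcc4 as the only one of the 23 to pass (0.30, adjusted p = 0.00177). Without the 4 arrays Abcc4 and Nqo1 passed (adjusted p = 0.013 and 0.0226) and Srxn1 did not (adjusted p = 0.363).

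Growth signals act through ERK on early genes and on their own inhibitors. Of 23 immediate early genes 1 was higher, Egr1, a zinc finger transcription factor, against 0.345% of all genes. In that list 0 were lower and 22 did not pass (median 0.07, against 0.03 for all genes). Egr1 measured 8.46, 8.53, 8.27 and 8.33 with PA and 7.95, 7.67, 7.73 and 7.73 with PMA, against 7.79, 7.75, 7.64 and 7.79 with SA, 7.58, 7.60 and 7.62 with OA and 8.44, 8.24, 8.32 and 8.37 in control cells. The PA arrays lay with the controls, and PMA overlapped SA. The chain length difference was 0.41 ± 0.05 (adjusted p = 0.000243), with 0.65 ± 0.07 in PA against SA (adjusted p = 5.21e-05) and 0.17 ± 0.07 in PMA against OA (adjusted p = 0.54). With an adjusted p of 0.695 the interaction did not show that the pairs differed. Dusp6 and Spry2, which damp ERK signals, were the 2 of 16 ERK feedback genes that were higher (0.33 ± 0.05 and 0.15 ± 0.03, adjusted p = 0.00109 and 0.0442), against 0.345% of all genes. Of the 16, 0 were lower, and the list median was 0.06, against 0.03 for all genes. Dusp6 measured 8.21, 8.33, 8.44 and 8.43 with PA and 8.18, 8.08, 8.15 and 8.15 with PMA, against 8.05, 7.87, 7.99 and 7.84 with SA, 7.89, 7.88 and 7.93 with OA and 8.16, 8.07, 8.20 and 8.33 in control cells. Its chain lengths did not overlap. Without the 4 arrays that stood apart neither passed (adjusted p = 0.0594 for Dusp6 and 0.241 for Spry2), while Egr1 did (0.36, adjusted p = 0.00394). With 8 arrays as 1 group against 7, where the distance between PA and PMA counts as error, Egr1 did not pass (adjusted p = 0.111), nor did Spry2 (adjusted p = 0.0791).

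Inflammatory genes passed in small numbers. Beside the list counts given here, 0.345% of all genes were higher and 0.165% lower, and the median of all genes was 0.03. Of 33 cytokines, chemokines and acute phase genes Lcn2 was higher and 0 were lower (median 0.02). Centring each array on its median gave 1 higher and 2 lower in that list, and cyclic loess 1 higher and 1 lower. Over all 18820 genes centring gave 28 higher and 143 lower, and loess 99 higher and 126 lower. Itih4, an acute phase plasma protein outside the list, did not pass without the 4 arrays (adjusted p = 0.124). Of 28 genes of the Toll-like receptor and NF-kB pathway 2 were higher, Nfkb2, an NF-kB subunit, and Bcl3, which acts on its dimers in the nucleus (0.22 ± 0.04 and 0.23 ± 0.05, adjusted p = 0.0233 and 0.0398), and 0 were lower, with a median of -0.02. Among 29 interferon-stimulated genes Tap1, a peptide pump of antigen presentation, was higher (0.28 ± 0.05, adjusted p = 0.0156), 0 were lower and the median was 0.08. After each array was centred on its median, and also without the 4 arrays, 0 genes of the NF-kB list and 0 of the interferon list passed, with adjusted p without the 4 arrays of 0.277 for Nfkb2, 0.204 for Bcl3 and 0.124 for Tap1. Of 18 macrophage markers Cd68, a lysosomal membrane protein, was higher (0.34 ± 0.07, adjusted p = 0.0342, and 0.062 without the 4 arrays), and 0 were lower. The macrophage list mean was 4.74 to 4.94 with 16 carbons and 4.71 to 4.79 with 18, and its part in the results on inflammatory genes was not tested.

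Enzymes that act on the added acids themselves differed little. Among 21 elongases and desaturases Scd3, a stearoyl-CoA desaturase, was the 1 that passed (0.33 ± 0.05, adjusted p = 0.00229), where 0.51% of all genes passed. With loess 1 member of the list was lower as well, where 126 of all 18820 genes were. Scd3 measured 8.78, 8.91, 9.00 and 8.89 with PA and 9.01, 9.01, 9.24 and 9.04 with PMA, against 8.71, 8.52, 8.57 and 8.57 with SA, 8.73, 8.63 and 8.80 with OA and 9.01, 8.86, 9.14 and 8.98 in control cells. All SA and OA arrays were below the controls, and the PA and PMA arrays overlapped the controls. Scd1 and Scd2, its relatives on chromosome 19, differed by -0.03 (95% interval -0.10 to 0.04) and 0.01 (-0.06 to 0.08), and cross-hybridisation among the 3 was not tested. Elovl6, which turns 16-carbon into 18-carbon chains, differed by 0.15 without passing (95% interval 0.05 to 0.24, adjusted p = 0.131). Of 31 measured panel genes 3 passed, namely Egr1, Lcn2 and Fmod. These and Ccl5, Slc7a11 and Znfx1 were set aside by name, which left 25 panel genes of lipid handling and adipocyte function. Over those 25 the differences ran from -0.10 to 0.15, and in 23 of them the 95% interval lay inside -0.2 to 0.2. That 0 of the 25 passed follows from setting aside the 3 that did, and is no separate result. They include Fasn, fatty acid synthase, at -0.02 (-0.10 to 0.06) and Cd36, a fatty acid transporter, at -0.04 (-0.13 to 0.04). Elovl5, an elongase of unsaturated chains, stood at -0.03 (-0.11 to 0.06) and Cpt1a, the gate to mitochondrial oxidation, at -0.09 (-0.17 to -0.01, adjusted p = 0.211).

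Fat and energy metabolism held single genes that passed. Of 17 genes of lipogenesis Mid1ip1, an activator of acetyl-CoA carboxylase, was higher (0.21 ± 0.04, adjusted p = 0.00903) and Pnpla3 lower. Of 23 peroxisomal genes Acox2, an oxidase of branched chains, was higher (0.32 ± 0.06, adjusted p = 0.00816), and of 19 cholesterol genes Nsdhl, an enzyme of late sterol synthesis, was lower (-0.19 ± 0.04, adjusted p = 0.0372). Among 20 adipocyte markers Lep, the satiety hormone leptin, was lower and the other 19 did not pass. Lep measured 8.06, 8.17, 8.09 and 7.96 with PA and 7.92, 7.81, 7.90 and 7.94 with PMA, against 8.20, 8.31, 8.19 and 8.24 with SA, 8.13, 8.37 and 8.23 with OA and 7.95, 8.09, 8.00 and 8.20 in control cells. PMA was the lowest group and PA overlapped OA (-0.26 ± 0.05, adjusted p = 0.00903). Gys2, a glycogen synthase, measured 6.26, 6.21, 6.64 and 6.41 with PA and 6.43, 6.68, 6.66 and 6.70 with PMA, against 7.13, 6.91, 6.84 and 6.79 with SA, 6.79, 6.80 and 7.11 with OA and 6.77, 6.52, 6.73 and 6.73 in control cells. All 18-carbon arrays were above all 16-carbon arrays (-0.41 ± 0.07, adjusted p = 0.00744). Cox6a2, the heart and muscle form of a cytochrome oxidase subunit, was higher (0.36 ± 0.06, adjusted p = 0.00816), as was Atp2a3, a calcium pump (0.35 ± 0.06, adjusted p = 0.00744). Without the 4 arrays Cox6a2 and Pnpla3 passed (adjusted p = 0.0335 and 0.0499). Mid1ip1, Acox2, Nsdhl, Lep, Gys2 and Atp2a3 did not, with adjusted p = 0.124, 0.145, 0.271, 0.062, 0.158 and 0.19 in that order. None of 22 genes of mitochondrial fatty acid oxidation passed, nor of 26 of uptake and activation, 28 of triglyceride storage and lipolysis, 29 of ceramide synthesis or 45 of oxidative phosphorylation. These counts depend on the scaling for the lists of mitochondrial oxidation and of triglyceride, where 2 genes each were lower after centring and 1 each with loess. Of all 18820 genes 143 were lower after centring and 126 with loess. The list counts also depend on how the lists were drawn, since Cox6a2 was placed among thermogenic genes and Pnpla3 among those of lipogenesis. With 0.51% of all genes passing, lists of this size can hold none without differing from the other genes.

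**Figure D5:**
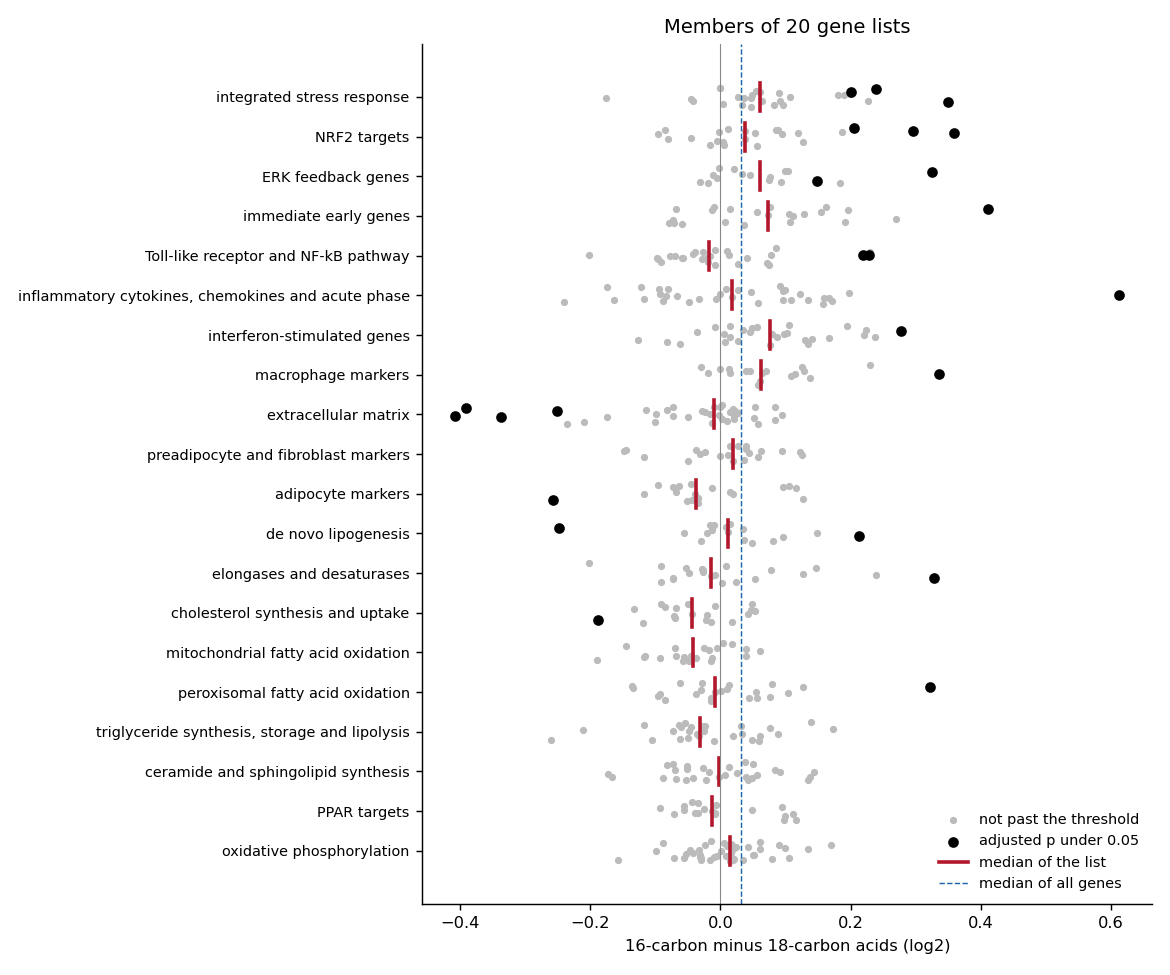
Chain length difference (16 carbons minus 18 carbons, log2) of each measured member of 20 gene lists. Black points have a limma adjusted p under 0.05, grey points do not, red bars are list medians and the dashed line is the median of all genes at 0.03. The 4 black points of the extracellular matrix list lie below 0 and the 3 each of the integrated stress response and the NRF2 targets above it.

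The 32 lists together held 732 measured genes, of which 26 passed (3.55%), against 0.51% of all genes. They were written with earlier results of these arrays known, so that their share is no independent evidence. No member passed in 15 of the lists, with a smallest adjusted p of 0.0533 among them. Members passed in 4 of those 15 lists after centring (0 higher and 6 lower) and in 3 with loess (0 higher and 3 lower). Of all 18820 genes, 28 were higher and 143 lower after centring, and 99 were higher and 126 lower with loess. The 1 gene that passed among 36 ribosomal protein genes was Rpl11 (0.18 ± 0.04, adjusted p = 0.0372, and 0.368 without the 4 arrays), whose 6 probe sets differed by 0.14 to 0.18 and may share signal with near-identical copies.

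BC023105 is the gene in which the pairs differed. It measured 4.66, 4.61, 4.56 and 4.63 with PA and 5.41, 5.69, 5.81 and 5.79 with PMA, against 4.64, 4.83, 4.48 and 4.72 with SA, 4.62, 4.60 and 4.74 with OA and 5.03, 5.10, 5.18 and 4.83 in control cells. All 4 PMA arrays were above every other array, and PA, SA and OA overlapped. PMA minus OA was 1.02 ± 0.09 (adjusted p = 6.92e-06) and PA minus SA -0.05 ± 0.09 (adjusted p = 0.775). The interaction, PA minus SA less PMA minus OA, was -1.07 (adjusted p = 0.000611), the only one of 18820 that passed (0.00531%). The next smallest adjusted p was 0.695, and 986 genes had an unadjusted p under 0.05. Its chain length effect of 0.48 is thus the mean of 2 unlike differences, did not pass with 8 arrays as 1 group against 7 (adjusted p = 0.194), and its mean level was at percentile 33.2 of the genes tested.

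Other genes passed in 1 pair only, which does not show that the pairs differ. In PA against SA they include Bbc3, a p53 target that promotes cell death (0.41 ± 0.08, adjusted p = 0.0422, against 0.11 in PMA minus OA), Znfx1, an antiviral helicase (0.37 ± 0.07, adjusted p = 0.0341, against 0.07), and Clk1, a kinase of splicing factors (-0.46 ± 0.07, adjusted p = 0.00587, against -0.14). Clk1 measured 8.28, 7.93, 8.11 and 8.13 with PA and 8.32, 8.54, 8.41 and 8.51 with PMA, against 8.63, 8.53, 8.68 and 8.46 with SA, 8.57, 8.54 and 8.66 with OA and 8.13, 8.13, 8.08 and 8.16 in control cells. PA lay below all SA arrays, and PMA and OA met at 8.54. The interaction had an adjusted p of 0.929 for each of Bbc3, Znfx1 and Clk1. Another probe set of Znfx1, which is dimmer, went the other way, by -0.15 in PA minus SA and by -0.08 in the chain length effect. Without PA replicates 2 and 4, 2 genes passed in PA against SA, and without PMA replicates 1 and 4, 2 genes passed in PMA against OA.

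Snord53, a small nucleolar RNA of the family that guides RNA methylation, had the largest difference among the 96 genes. It measured 8.51, 8.69, 8.74 and 8.06 with PA and 8.21, 7.99, 7.85 and 8.21 with PMA, against 7.02, 7.69, 7.83 and 7.74 with SA, 7.51, 7.18 and 7.73 with OA and 8.09, 7.45, 8.33 and 8.73 in control cells. The chain lengths did not overlap, but the controls ran from 7.45 to 8.73. The difference was 0.76 ± 0.15 (adjusted p = 0.0233), and 0.75 without the 4 arrays that stood apart, where it did not pass (adjusted p = 0.192). Further genes among the 15 largest in each direction were 5730408K05Rik (0.41) and Ascl4, a dim transcription factor gene (0.33), which were higher, and Rasgef1b (-0.31), Fam171b (-0.30) and Igsf10 (-0.29), which were lower. Without the 4 arrays none of these 5 passed (adjusted p from 0.131 to 0.368).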

How the data were processed

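RNA of 19 samples was measured on Affymetrix Mouse Gene 1.1 ST arrays from 100 ng of total RNA, and per the labels RNA integrity was above 9. The deposited values are log2 intensities that the authors made with RMA in affy 1.34.0 under R 2.15.0, per the submitters' processing notes, and RMA's quantile step removes differences in total signal between arrays. No genome build is given in the sources used here. The number of arrays limits the precision, and p-values measure only the spread between the labelled replicates, which may be technical.

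Probe sets were named from the platform annotation. A separate test of 14338 that lack a single symbol had 0 passing in limma (1774 at an unadjusted p under 0.05). A gene is its brightest probe set. limma 3.58.1 in R 4.3.3 fitted 1 mean per group over all 19 arrays with eBayes, for the chain length effect, each pair and their interaction, with Benjamini-Hochberg adjustment over 18820 genes and a threshold of 0.05. Genes were named as the 15 largest differences each way that passed, those passing in both pairs, the 6 largest each way in each pair, up to 4 per list, and a fixed panel. Mgat4f, Rbm47, Adamtsl5, Npnt and Tgfb3 fall outside that rule and were chosen after their values were seen. Tgfb3 was named because it passed in every alternative run. Members and lists were chosen with earlier results of these data known. The fit was tested on simulated data. Alternatives covered filters, probe set rule, scaling, spread, weights, a replicate block and arrays left out. Promoters are those of RefSeq's GRCm38.p6 table, matched by symbol.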

Additional observations from a re-analysis of the deposited data

Results flagged for a closer look

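In 12 of 228 groups of 4 arrays, over the genes named, 1 array stood apart from the other 3 by a Dixon gap test, 5.26%, where chance gives about 1 in 20. In PA arrays these were Cox6a2 in replicate 4, at 7.18 against 7.43 to 7.48 in the others, and Elovl6 in replicate 2, at 9.39 against 9.17 to 9.20. In PMA arrays they were Scd3 in replicate 3, at 9.24 against 9.01 to 9.04, and, both in replicate 1, P4ha3 at 7.53 against 7.46 to 7.47 and Gys2 at 6.43 against 6.66 to 6.70. In SA arrays they were Tgfb3 in replicate 1, at 9.11 against 8.99 to 9.00, and, both in replicate 2, Fmod at 6.61 against 6.38 to 6.41 and Nfkb2 at 7.85 against 7.67 to 7.70. In control arrays they were Prg4 and Gys2 in replicate 2, at 8.61 against 8.32 to 8.34 and at 6.52 against 6.73 to 6.77. Bcl3 and Spry2 stood apart in control replicate 3, at 7.10 against 6.96 to 6.97 and at 7.93 against 7.83 to 7.84.

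The difference between the pairs was tested for all genes, and it passed for BC023105, where PA minus SA less PMA minus OA was -1.07 (limma adjusted p = 0.000611).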

How the results depend on the processing

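The chain length effect gave 96 genes as reported. It gave 225 with cyclic loess, 171 with median-centred arrays, 213 with a trended and robust spread, 349 with array weights, 43 with 8 arrays as 1 group against 7, 31 without PMA replicates 1 and 4 and 19 without these and PA replicates 2 and 4. Leaving out 1 array gave 45 (PMA replicate 1) to 577 (PA replicate 1). Other single arrays that moved it by over 1.5 times were PMA 2 (149) and 4 (58), SA 1 (51), 2 (58), 3 (52) and 4 (202), and OA 2 and 3 (48 each). PA against SA gave 27, then 41 without the dimmest genes by mean level, 43 with loess, 47 centred, 63 with the trended spread, 2 without PA replicates 2 and 4 (also with PMA 1 and 4 left out), 2 on its own arrays, and 9 (without SA 2) to 499 (without PA 1) with 1 array left out, with 11 each without PA 4 or SA 1. PMA against OA gave 10, then 16 without the dimmest genes, 20 with loess, 30 with the trended spread, 79 with weights, 5 on the 15 acid arrays, 18 without PA 2 and 4, 2 without PMA 1 and 4 (also with PA 2 and 4 left out), 4 on its own arrays, and 4 (without PMA 1, PMA 4 or OA 3) to 19 (without PMA 2) with 1 left out, with 5 each without PMA 3 or OA 2. Genes passing in both pairs numbered 3, then 5 without the dimmest genes, 7 with loess, 8 with the trended spread, 7 with weights, 0 without PA 2 and 4, without PMA 1 and 4 or without all 4, and 1 to 6 with 1 left out, the 1 without SA 1 being Prg4. The interaction had 1, and 0 without the dimmest genes, to which BC023105 belongs. With 8 arrays against 7, 43 of the 96 passed, and those that did not include Ogn, Fmod, P4ha3, Egr1, Clk1, Psph, Srxn1, Bcl3, Cd68, Nsdhl and BC023105. Of 121 named genes that had not passed, 39 passed in some setting. None of the 96 reversed, and 37 were kept whichever single array was left out. The causes were not tested, and the setting without all 4 arrays was chosen after seeing the data.

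Replicate numbers did not pair the samples (36 same-numbered correlations of residuals, -0.43 to 0.40, median 0.006, 6 over 0.1). With the number as a replicate block the chain length effect gave 59 genes, PMA against OA 5 and both pairs 1.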
